A study of Homo sapiens with 2 samples.

Results

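This report describes 8 genes of growth factor signalling, FGFR1, IGF1R, INSR, IRS1, IRS2, MAP2K1, PIK3R1 and RICTOR, in prostate epithelial cells that received an excess of the microRNA miR-424. They had been grouped as targets of the miR-15, miR-16 and miR-424 family in FGF and insulin receptor signalling, and their probes were found by the RefSeq accession that the array design gives each probe. The 8 genes had 10 probes among the 42405 probes of the array, 2 each for FGFR1 and IRS1 and 1 for each of the others. The cells were RWPE-1, a noncancerous human prostate epithelial cell line kept in serum-free keratinocyte medium, which received either pre-miR-424 at 30 nM or the precursor Negative control #1. RNA of both transfections was hybridised together on 2 Agilent dual-colour arrays of 1 slide, with pre-miR-424 in Cy5 and control in Cy3 on the first array (normal labelling) and the dyes exchanged on the second (dye swap). The study's design text calls the arrays technical replicates, so the comparison has n = 1 and no p-value was computed. The SD given with a value is that between the 2 arrays and covers labelling and hybridisation only. In such bulk RNA, fewer cells of a kind and less RNA per cell cannot be told apart.

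FGFs and the insulin-like growth factors bind receptor tyrosine kinases on the cell surface. FGFR1 is a receptor for FGFs, IGF1R for insulin-like growth factors and INSR for insulin. The active insulin and IGF receptors phosphorylate the docking proteins IRS1 and IRS2, which recruit PI3-kinase through its regulatory subunit p85α, encoded by PIK3R1. PI3-kinase leads to AKT, which is also phosphorylated by the mTOR complex 2 that RICTOR defines. Alongside, RAS and the RAF kinases lead to MEK1, encoded by MAP2K1, and from there to ERK. In the prostate, FGF and IGF signals between stroma and epithelium support epithelial growth and survival. A microRNA pairs through its seed with sites mostly in the 3′ untranslated region of a messenger RNA, and lowers its translation and often its level. FGFR1 and MAP2K1 have been described as targets of miR-424 in other cells.

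The sequences below show what the transfected precursor shares with its family, with the seed (bases 2 to 8) in capitals. They come from RefSeq (GRCh38.p14), where miR-424-5p lies at chrX:134546680-134546701 and miR-424-3p at chrX:134546644-134546664, both on the minus strand. Which arm the commercial precursor delivers is not given in the sources used here.
miR-424-5p: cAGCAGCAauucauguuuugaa
miR-424-3p: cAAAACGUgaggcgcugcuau
miR-16-5p: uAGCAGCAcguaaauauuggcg
miR-15a-5p: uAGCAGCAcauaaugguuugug
miR-497-5p: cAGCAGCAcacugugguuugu
miR-503-5p: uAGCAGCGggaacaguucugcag
The seed AGCAGCA of miR-424-5p is carried by 7 human mature microRNAs in this table, namely miR-15a-5p, miR-15b-5p, miR-16-5p, miR-195-5p, miR-424-5p, miR-497-5p and miR-6838-5p. The base-paired partner of these letters in a target is UGCUGCU. MiR-503-5p, encoded next to miR-424 on chromosome X, differs in the last base of the seed (AGCAGCG), and the other arm, miR-424-3p, has an unrelated one (AAAACGU). Target transcripts were not searched for these letters.

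The arrays held 58717 spots of these probes each, with median signals of 165 to 189 in Cy3 and 290 to 314 in Cy5 over local backgrounds of 28 to 29 and 69 to 70. In all, 25664 probes stood well above background in Cy3 and in Cy5 on each array, without an outlier spot. Such probes are called measured here, and those matched to a gene symbol covered 13812 genes. All 7 epithelial markers checked (KRT5, KRT14, KRT8, KRT18, TP63, CDH1 and EPCAM) were well above background, whereas the luminal marker KLK3 was not. Of 11 fibroblast, endothelial and leukocyte markers 5 were above it, and their part in the results was not tested. No probe of MIR424 itself was matched. CCNE1, cyclin E1, and CDC25A, a cell cycle phosphatase, are widely described as targets of this seed family. Both genes were lower on both arrays, as were 26.7% of all measured genes. Their log2 ratios were −0.62 and −0.92 for CCNE1 and −0.52 and −0.53 for CDC25A, which is short of 1.5-fold. Both were named with their values known, and other described targets were not counted as a set.

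The signals behind the 8 genes differed in reliability. MAP2K1 was read from signals of 6596 to 13577 scanner units, over backgrounds of 27 to 70, and IRS2 and IGF1R lay far above background too. FGFR1 was dim, with Cy3 signals of 129 to 152.5 over backgrounds of 25 to 28, and its ratios are drawn towards 0 by the background correction. INSR was the dimmest, at 69 and 68.5 in Cy3 over 31.5 and 29. Its probe was not well above background in Cy3 on either array, whereas in Cy5 it was well above background at both spots on the normal array and at 1 of 2 on the swap. Cy3 thus missed INSR whichever RNA it carried, and no ratio of INSR is counted. This left 7 measured genes with 9 probes, none saturated and none with an outlier spot.

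**Figure D1:**
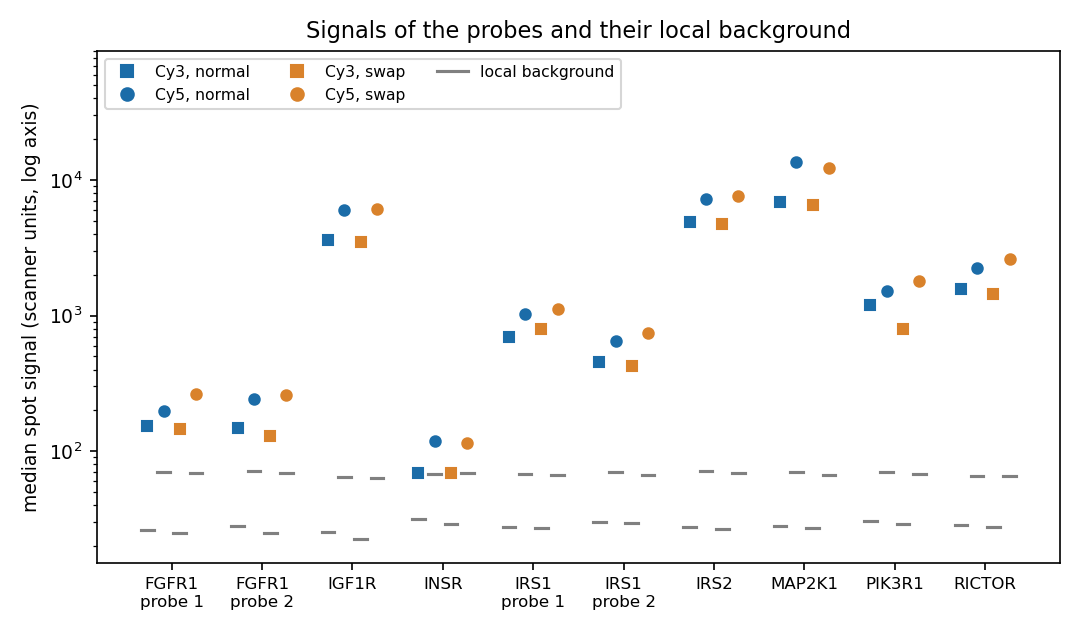
Median spot signal (scanner units, log axis) of the 10 probes of the 8 genes in Cy3 (squares) and Cy5 (circles) on the array with normal labelling (blue) and on the dye swap (orange), averaged over a probe's spots, with grey bars for the local background. Signals compare channels of a probe, not genes. INSR sits nearest to its background, and MAP2K1 farthest above it.

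None of the 7 measured genes differed by 1.5-fold (0.58 on the log2 scale) in the same direction on both arrays. Among all 13812 measured genes 1.01% did (140 genes, 0.623% higher and 0.391% lower), so at this number of genes a count of 0 is near the background. Mean log2 ratios of pre-miR-424 over control ran from −0.23 for PIK3R1 to 0.22 for MAP2K1, with a median of 0.13 (−0.01 with normal labelling, 0.15 on the dye swap), against −0.0042 over all genes. Only 1 of the 7, PIK3R1, was lower on both arrays, whereas 26.7% of all genes were. IGF1R and MAP2K1 were higher on both, as were 26.8% of all genes, and the other 4 genes had opposite signs on the 2 arrays. With 7 genes and n = 1 these counts are near the shares of all genes. Protein was not measured.

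Of the receptors, IGF1R, which signals for growth and survival, had log2 ratios of 0.12 with normal labelling and 0.21 on the dye swap (mean 0.16, SD 0.062, 1.12-fold). The 4 spots behind it ranged little, with SDs of 0.047 and 0.020 between the spots of an array. Its mean exceeded the SD between arrays, but 15.6% of all measured genes had a mean ratio at least as high. FGFR1 was read by 2 probes that disagreed. The brighter, by a narrow margin (mean log2 intensity 7.58 against 7.56), was of NM_001174066 and had a single spot. It gave 0.07 and −0.08 (mean −0.0016). The other, of NM_023110, gave −0.28 and 0.08 (mean −0.10), and its 2 spots on the normal array had an SD of 0.22, the widest spread among the measured probes of the group. No change of FGFR1 could be resolved at this signal. For INSR the unfiltered ratios were 0.21 and −0.0030.

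After the loess fit the docking proteins differed most between the arrays. Under median centring MAP2K1 and IGF1R did, but those ratios include a shift that was not equal across genes. Relative to the medians of all measured probes (0.10 and −0.18) MAP2K1 (0.43 and −0.0046) and IRS1 (−0.0068 and 0.41) differed most. Subtracting a median does not remove the unequal part of the shift. With loess IRS1 gave, by its brighter probe, −0.01 with normal labelling and 0.45 with the dyes exchanged (mean 0.22, SD 0.33). Its second probe, of the same transcript NM_005544, gave −0.07 and 0.12 (mean 0.02, SD 0.14). Both IRS1 probes were thus near 0 with normal labelling and higher with pre-miR-424 on the swap. IRS2 behaved alike, with −0.06 and 0.32 (mean 0.13, SD 0.27). In both genes the SD between arrays exceeded the mean, as it must where the signs are opposite. Spots of a probe within an array agreed within an SD of 0.12.

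PIK3R1, the regulatory subunit of PI3-kinase, was the gene with the closest repeat. Its log2 ratios were −0.24 and −0.22 (mean −0.23, SD 0.019), which is 0.852 of the control level, and the spots of an array differed by an SD of at most 0.017. Its signals before normalization were 1206 (Cy3) and 1525 (Cy5) with normal labelling and 799.5 and 1800 with the dyes exchanged. A mean ratio at or below that of PIK3R1 was found in 8.95% of all measured genes. The single probe belongs to NM_181523, so other isoforms were not read separately.

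MAP2K1, the kinase that activates ERK, was higher on both arrays, by 0.29 and 0.15 (mean 0.22, SD 0.098, 1.17-fold), and 9.39% of all genes had a mean at least as high. RICTOR, the defining subunit of mTOR complex 2, gave −0.06 and 0.10 (mean 0.02, SD 0.12). The sign of RICTOR differed between the arrays although its spots agreed within an SD of 0.024.

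**Figure D2:**
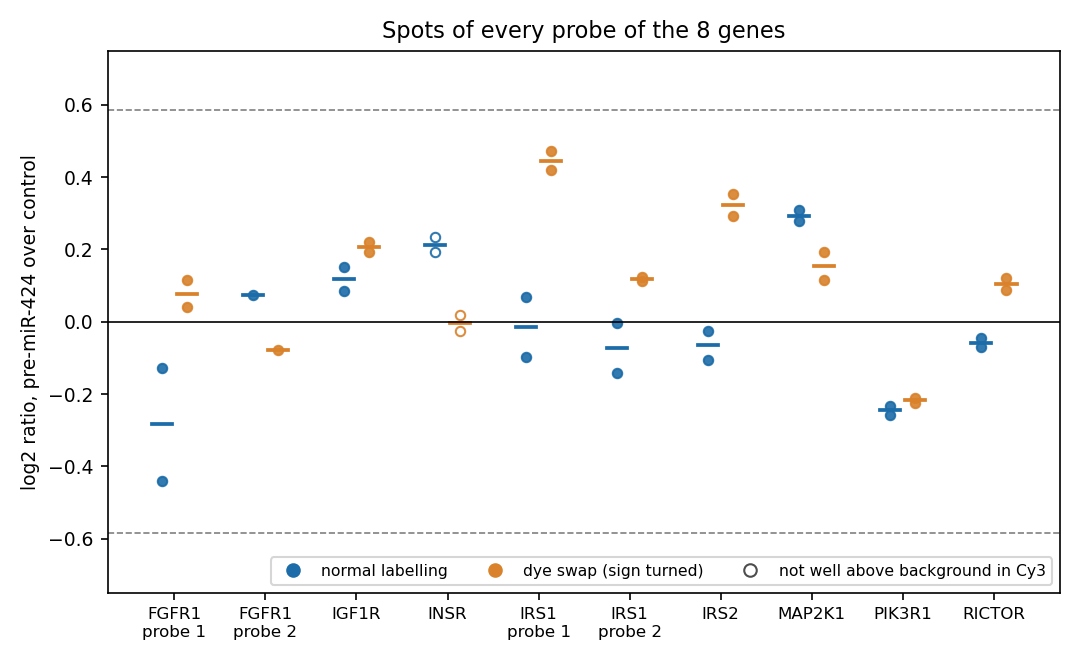
Log2 ratio of pre-miR-424 over control for every spot (points) of the 10 probes, with bars for the mean of an array, on normal labelling (blue) and the dye swap with its sign turned (orange). Open points are INSR, which was not well above background in Cy3, and dashed lines mark 1.5-fold. No bar reaches them, PIK3R1 lies below 0 on both arrays, and the IRS1 and IRS2 points split by array.

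Spots within an array agreed more closely than the 2 arrays did. The median SD between spots of a probe on an array was 0.040 for the measured probes of the group, and the median SD between the arrays was 0.12. The part of a ratio that keeps its sign with the dye is the difference of the turned ratios divided by 2. This dye part was larger in size than the mean ratio in 4 of the 7 genes (FGFR1, IRS1, IRS2 and RICTOR) and in 46.5% of all genes. With 2 arrays that holds exactly where their signs are opposite, so these counts restate the opposite signs and are no separate result. The dye part was −0.23 for IRS1 and −0.19 for IRS2, and −0.01 for PIK3R1. Across all measured genes the dye part had an SD of 0.16 and a median size of 0.093, and the mean ratio an SD of 0.20. The dye parts of IRS1 and IRS2 were thus larger than the median size. The share of genes with a dye part that large was not counted.

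**Figure D3:**
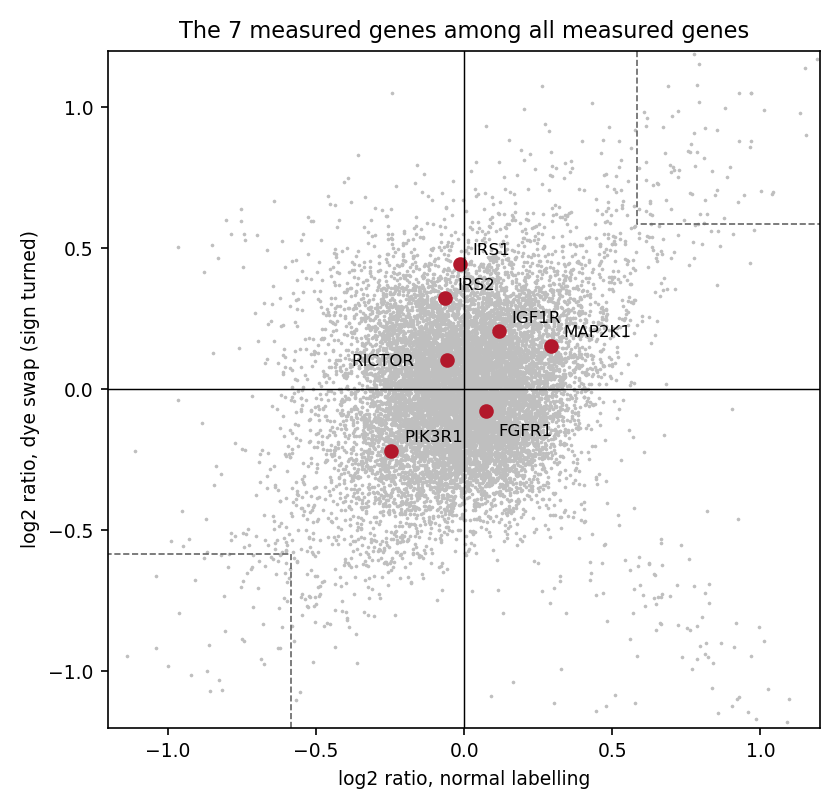
Log2 ratio of pre-miR-424 over control on the normal array (x axis) and on the dye swap with its sign turned (y axis) for all measured genes (grey; 42 of the 13812 lie outside the range of 1.2 shown) and the 7 measured genes (red). Dashed corners hold genes past 1.5-fold on both arrays. The red points stay in the dense centre, with PIK3R1 lower and IGF1R and MAP2K1 higher on both arrays.

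The rest of the pathway was read from a list of 106 genes drawn up from general knowledge and ordered by role. Of these, 89 were measured, 13 were not well above background and 4 had an outlier spot. Earlier results of these data were known when the list was chosen, so its shares are described and not tested. On both arrays 42 of the 89 (47.2%) were lower and 25 (28.1%) higher, against 26.7% and 26.8% of all measured genes, and the median of their mean ratios was −0.08. Under median centring 29 (32.6%) were lower and 19 (21.3%) higher, against 20.8% and 14.6% of all measured genes. Past 1.5-fold were 3 genes (3.37%). PDPK1, the kinase that activates AKT, rose by 0.64 and 0.72 (mean 0.68, SD 0.061, 1.60-fold), and by 0.37 and 0.61 at its second probe. RPS6KA3, the ERK-activated kinase RSK2, fell, with −0.65 and −0.60 (mean −0.62), and −0.73 and −0.53 at its second probe. FOSL1, the ERK-responsive transcription factor FRA1, fell, with −0.63 and −0.65 (mean −0.64, SD 0.014). With the probes of a gene averaged PDPK1 and RPS6KA3 lost their calls. FOSL1 has 1 measured probe, so averaging could not change its call. Under median centring none of the 3 kept its call. PDPK1 has a near-identical pseudogene, and the probe sequences were not used here, so its signal may include that copy.

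The counts by role stand beside 26.7% of all measured genes lower and 26.8% higher on both arrays (20.8% and 14.6% under median centring). Among the ligands, 3 of 7 were higher and 3 lower on both arrays, from FGF11 (−0.31 and −0.22) to FGF5 (0.36 and 0.47). Of the 6 measured binding proteins and co-receptors 4 were lower and 1 was higher, from FGFBP1, which releases FGFs from the matrix (−0.21 and −0.42), to IGFBP7 (0.06 and 0.37). None of them was lower on both arrays when the arrays were centred on their medians in place of the loess fit.

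IGFBP3, the major carrier of insulin-like growth factors in blood, had been left out because 1 of its 10 spots on the swap was marked as an outlier. It was looked at after its value was seen. Without that spot its log2 ratios were 1.09 and 1.16 (mean 1.13, SD 0.051, 2.18-fold), with SDs of 0.069 and 0.048 between the spots of an array. This was larger in size than the mean ratio of any of the 89 measured pathway genes. Among the others left out for such spots, IGFBP2 gave −0.09 and BRAF −0.14 when those spots were dropped.

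All 5 other receptors that were measured were lower on both arrays, as were 26.7% of all measured genes. Naming all 5 was decided after their values were seen. FGFR3 had −0.49 and −0.70 (mean −0.59, SD 0.15) by its brighter probe and −0.10 and −0.29 by the other. IGF2R, which clears IGF2, had −0.58 and −0.22, FGFR4 had −0.36 on both, FGFRL1 had −0.47 and −0.23, and FGFR2 had −0.11 and −0.13. The second FGFR2 probe was split (−0.28 and 0.0031). None of the 5 passed 1.5-fold on both arrays, and with 5 genes and n = 1 no difference from IGF1R or FGFR1 was tested.

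In the RAS and ERK cascade 6 of 9 genes were lower and none was higher on both arrays, although 2 were higher on both under median centring. Of the 11 adaptors 4 were lower and 1 was higher (3 and 0 under median centring), from PTPN11, the phosphatase SHP2 (−0.46 and −0.0053), to CRK (0.21 and 0.24). The 14 genes of PI3K and AKT were divided, with 4 higher and 5 lower (3 lower under median centring), and GSK3B, a kinase inhibited by AKT, was the lowest (−0.32 and −0.33). Of the 12 mTOR genes 4 were higher and 5 lower, and under median centring 2 were higher and 2 lower. MAPKAP1, which encodes the partner of RICTOR in mTOR complex 2, was the lowest with −0.32 and −0.37, although the means of its 3 probes ran from −0.35 to −0.06, and PRR5L was the highest (0.08 and 0.31).

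Of the 18 inhibitors 8 were higher and 9 lower. SPRED1, which restrains RAF activation, was the lowest (−0.60 and −0.55), and DUSP5, a phosphatase of ERK, the highest (0.26 and 0.50). Among the 7 ERK-responsive genes 4 were higher (2 under median centring), with IER3 highest (0.51 and 0.38, and 0.44 and 0.25 by its other probe), and FOSL1 was the single one lower. Genes that respond to ERK therefore did not share a direction.

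**Figure D4:**
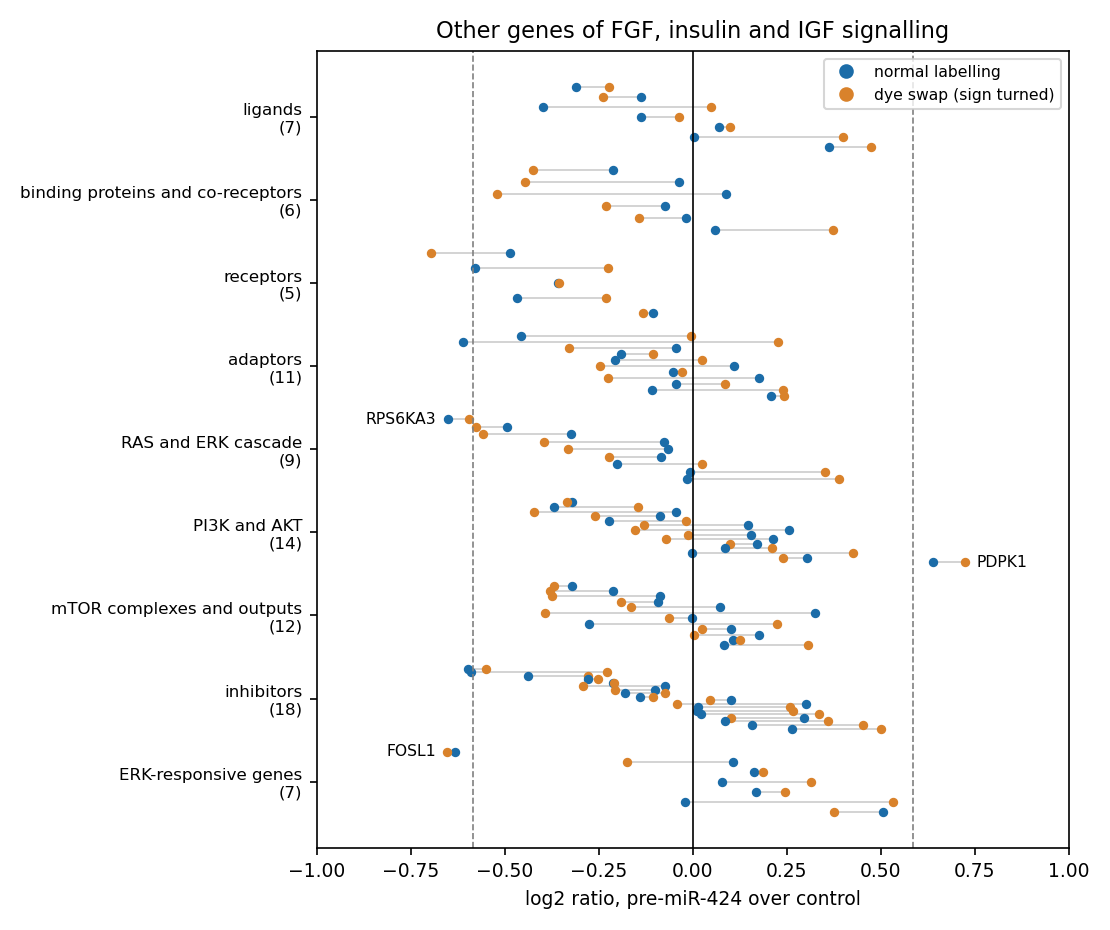
Log2 ratio of pre-miR-424 over control on normal labelling (blue) and the dye swap with its sign turned (orange), joined by a line, for the 89 measured pathway genes in rows by role (number of genes in brackets), sorted by mean within a role. Dashed lines mark 1.5-fold. PDPK1, RPS6KA3 and FOSL1 lie beyond them on both arrays, and all 5 receptors lie left of 0.

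Over the 8 ways of processing with both arrays, the mean log2 ratio of PIK3R1 lay between −0.29 and −0.21 and that of MAP2K1 between 0.17 and 0.22. The range was 0.10 to 0.19 for IGF1R, 0.12 to 0.24 for IRS1 and 0.07 to 0.13 for IRS2. FGFR1 (−0.05 to 0.03) and RICTOR (−0.04 to 0.05) took either sign. The lowest values of IGF1R, IRS2 and RICTOR came from centring on the median in place of loess, and that of IRS1 from averaging its 2 probes. Under median centring the medians over all measured probes were 0.10 and −0.18 on the 2 arrays. The shift from loess was not equal across genes. FGFR1 went from 0.07 and −0.08 to 0.10 and −0.13, and MAP2K1 from 0.29 and 0.15 to 0.53 and −0.19. With median centring IGF1R (0.29 and −0.09) and MAP2K1 no longer had a common sign. IRS1 (0.09 and 0.22) and IRS2 (0.13 and 0.0097) were then higher on both arrays. Relative to those medians PIK3R1 was −0.22 and −0.27, IGF1R 0.19 and 0.09, and MAP2K1 0.43 and −0.0046. IRS1 was −0.0068 and 0.41, and IRS2 0.03 and 0.19. The unequal part of the shift remains in these values.

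**Figure D5:**
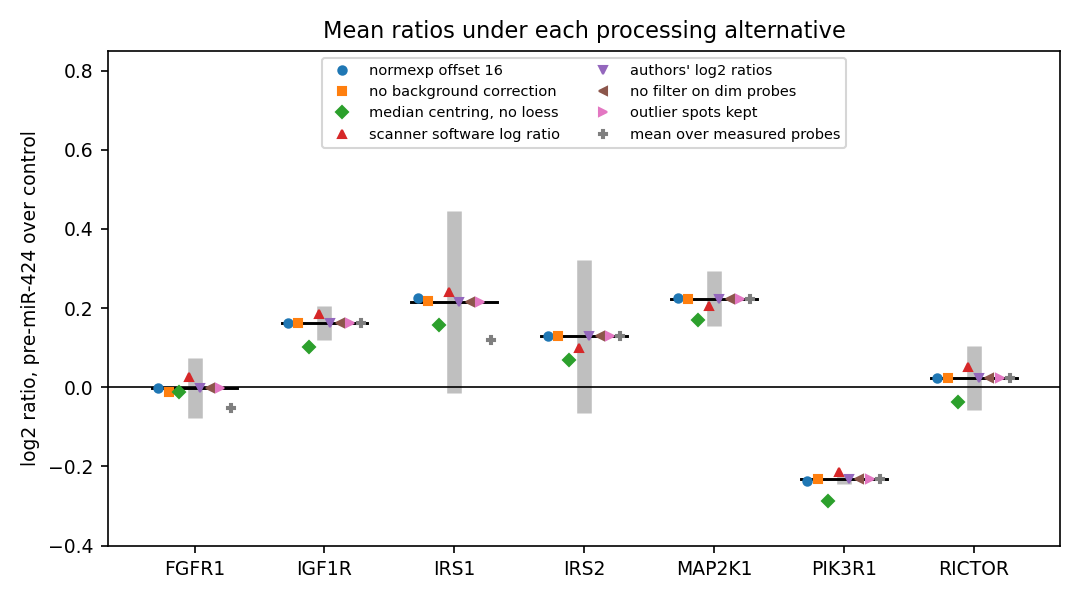
Mean log2 ratio of pre-miR-424 over control for the 7 measured genes as reported (black bar) and under 8 processing alternatives (symbols), with grey columns from one array's value to the other's. For IRS1 and IRS2 the grey columns, from −0.01 to 0.45 and −0.06 to 0.32, are far longer than the spread of the symbols.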

How the data were processed

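RNA of RWPE-1 cells with pre-miR-424 or control was hybridised to 2 Agilent dual-colour arrays, a dye swap in 1 scan. Per the file headers the deposited median spot and background signals are intensities from Feature Extraction 10.7.3.1, not normalized. Its processed intensities, in the same deposited files, are background-corrected and dye-normalized, and its deposited log10 ratio is Cy5 over Cy3. The authors' table of log2 ratios matched the values computed here before the swap was turned (Pearson 0.991 and 0.988 across 42405 probes); limma is named in the submitters' processing notes, and its steps are not given in the sources used here.

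Median signals were corrected by normexp (offset 50, all spots) and, without control spots, normalized by loess per array (limma 3.58.1, R 4.3.3), turned to pre-miR-424 over control and averaged over spots and arrays. Other steps used Python 3.11.15 with pandas 2.3.3. A measured probe was well above background in Cy3 and Cy5 on each array, without outlier spots, and the brightest measured probe stood for its gene. Of 27134 RefSeq probes 25771 matched a symbol (95.0%). Named were the 8 genes and, of the pathway list, genes past 1.5-fold on both arrays and the lowest and highest of each role (some of these and of the markers are not reported here); the other receptors and second probes were added after their values were seen. The members and lists were chosen with earlier results of these data known. With 1 replicate no test was run. The loess fit, the turning of the swap and the call were tested on simulated data, with planted changes larger than those of the members. Background correction, the filters and the choice of probe were not tested this way. As alternatives, ratios were recomputed with an offset of 16, with uncorrected signals, by centring arrays on their medians without loess, from the software's or the authors' ratios, with dim probes or outlier spots kept, with 1 array alone, with probes of a gene averaged and with a 2-fold threshold.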

Additional observations from a re-analysis of the deposited data

How the results depend on the processing

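No member passed 1.5-fold under any alternative run, single arrays and the 2-fold threshold included, and 1 was lower on both arrays under every alternative that used both. With a single array 2 to 4 members were lower and 3 to 5 higher, and the members' median was −0.0146 with normal labelling alone and 0.15 with the dye swap alone, and 0.07 under median centring, against 0.13. Of the pathway genes, 3 passed 1.5-fold, against 0 under median centring and 0 at 2-fold, and 4 to 6 did with a single array. With probes averaged 1 did, FOSL1, whose 1 measured probe averaging could not change. The pathway median of −0.08 was −0.11 under median centring and −0.0745 to −0.0445 on single arrays. The 5 other receptors were lower under each alternative (6 of 6 with dim probes kept), a check added after seeing the data. Of all genes, 140 passed, against 90 with median centring, 220 with the scanner software's ratios, 14 at 2-fold and 381 to 519 with a single array. The causes were not tested, apart from the looser or stricter calls that single arrays and 2-fold make. No paired analysis was possible because the 2 arrays form 1 group, each ratio being paired within its array. Signal over background limits FGFR1 and INSR.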
